A study of Mus musculus with 16 samples.

Results

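H3K27 acetylation (H3K27ac), a histone mark found at active promoters and enhancers, was compared between the PTU/LID diet and chow in livers that lack the corepressor NCoR1. The comparison holds 6 of the 16 samples of the study: 3 libraries of NCoR1 knockout (KO) mice on PTU/LID, titled Ptulid_NCoRKO_27ac_211, Ptulid_NCoRKO_27ac_232 and Ptulid_NCoRKO_27ac_239 and called PTU-a, PTU-b and PTU-c here, and 3 of KO mice on chow, titled Chow_NCoRKO_27ac_122, Chow_NCoRKO_27ac_146 and Chow_NCoRKO_27ac_190 and called chow-a, chow-b and chow-c. Values for the 6 are given in the order chow-a, chow-b, chow-c, then PTU-a, PTU-b, PTU-c. PTU/LID is a low iodine diet with 0.15% propylthiouracil, a drug that blocks thyroid hormone synthesis. It was given for 3 weeks from 6 weeks of age, livers of every group were taken on day 21, and the strain background of every group is labelled C57BL/6J. The same contrast in wild-type (WT) mice, with 3 further libraries per diet (WT-chow-a, -b and -c and WT-PTU-a, -b and -c in the order of their title numbers), serves to test whether an effect differs between genotypes, and the 4 input libraries are not analysed here. The knockout mice on chow are the controls of the comparison, so both of its groups lack NCoR1 per the labels. How Ncor1 was deleted and in which cells, the sex of the mice and the hour of collection are not given in the labels. They do not tie each library to its own animal either, and the spread behind every p-value is that between libraries.

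Thyroid hormone acts through the receptors TRα and TRβ, of which TRβ is the main form in hepatocytes. Without hormone, the receptors recruit corepressors such as NCoR1 together with histone deacetylase 3, which removes acetyl groups from histones near target genes, and with hormone they exchange these for coactivators that carry acetyltransferases. A diet that removes thyroid hormone is therefore a state in which a corepressor could act, and the comparison asks what that diet still does to acetylation when NCoR1 is missing.

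All 52645 regions of the deposited count table entered, and 52606 passed the filter on low counts. On PTU/LID 1724 regions rose (3.28% of those tested) and 1545 fell (2.94%), so that 6.21% changed at an adjusted p below 0.05 (edgeR quasi-likelihood test, Benjamini-Hochberg adjustment). The median size of the change was 0.99 on the log2 scale among regions that rose and 1.09 among those that fell. Losses of over 4-fold were seen at 181 regions and gains of that size at 43. Groups of 3 libraries that did not overlap made up 23.3% of all tested regions. Counts summed per gene gave 503 genes that rose (4.39% of 11448) and 349 that fell (3.05%).

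The 6 libraries held 3719180 to 7416187 counts. Of all counts, regions of the mitochondrial chromosome (chrM) took 3.0 to 17.25% in the 3 chow libraries and 2.27% in PTU/LID library PTU-a, but 0.72% in libraries PTU-b and PTU-c. Diet and chrM share therefore move together in KO, and the part of this share in the results was tested in 2 ways. With a term for the set of libraries with higher or lower chrM share, 2617 regions changed (1186 higher, 1431 lower). Only 1887 of them were among the 3269 regions of the main fit, so many calls were lost and others were new. With that term 749 genes changed, of which 550 were among the 852 of the main fit. With only the libraries of higher share, which leaves library PTU-a alone on PTU/LID and assumes that it varies like the others, 1923 changed (696 higher, 1227 lower). Without library PTU-c, 1794 regions changed, without library chow-a it was 1857, without library PTU-b it was 2074 and without library chow-c it was 2138. Without library PTU-a, 766 genes rose and 406 fell. Of genes, 719 changed with only the libraries of higher share (281 higher, 438 lower), 467 without library chow-a and 467 without library PTU-c, 527 without library chow-c and 531 without library PTU-b. Over regions within 2.5 kb of a gene end 381 genes changed. Both chrM alternatives left fewer regions that rose than regions that fell. Where a named call was lost under such a setting, the adjusted p of that setting is given in brackets, and regions near gene ends means a count over regions within 2.5 kb of an end of the gene only.

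**Figure D1:**
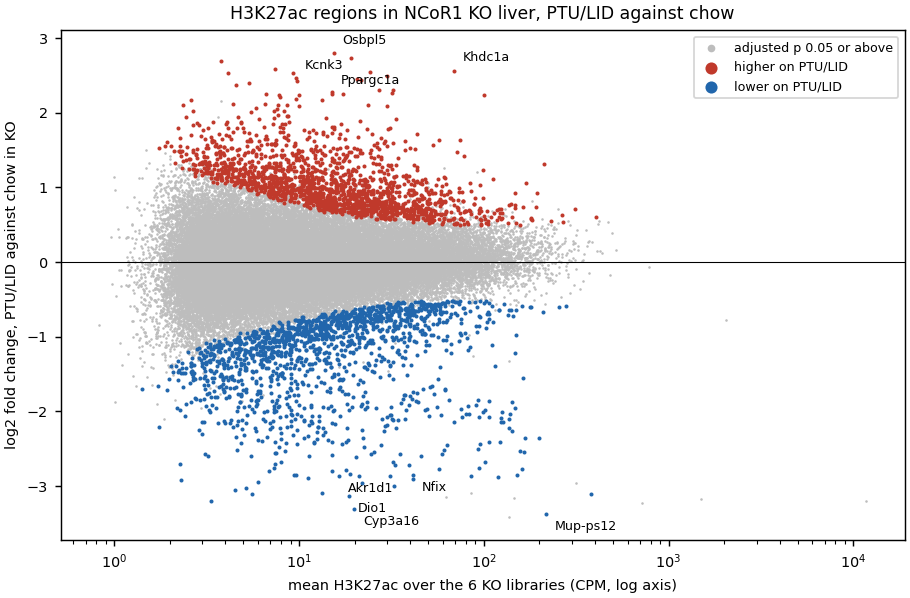
Each point is a tested region, placed by its mean H3K27ac over the 6 KO libraries (counts-per-million, log axis) and its log2 fold change on PTU/LID against chow. Red points (1724) rose, blue points (1545) fell and grey points did not pass an adjusted p of 0.05. The 4 regions of chrM are not drawn.

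Hepatocyte markers carried the mark in every library. The list held 25 tested genes of 26, and their summed acetylation, as counts-per-million (CPM), was 8625 to 9208 in the chow libraries and 9356 to 10485 in the PTU/LID libraries. Of the Kupffer cell and macrophage list 7 of 17 genes had a region to test, of the lymphocyte list 3 of 12, of the stellate cell list 7 of 16 and of the cholangiocyte list 4 of 9. The defining markers Clec4f, Vsig4 and Adgre1 of Kupffer cells, Cd3e of lymphocytes, Lrat, Reln, Pdgfrb and Col1a1 of stellate cells, and Krt7, Krt19 and Epcam of cholangiocytes had none. Endothelial markers were the exception, with 16 of 17 tested. In whole liver, fewer cells of a type and less of the mark per cell cannot be told apart.

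Promoters are shown first for genes whose start site carried a region that changed, because the core element of receptor binding can be looked for there. The windows run from 250 bases before to 50 after a RefSeq start (GRCm38.p6, the assembly of mm10), 5′ to 3′ on the gene's strand, and capitals mark the hexamer AGGTCA or its reverse complement TGACCT, the core element that thyroid hormone receptors and many other nuclear receptors bind. Dio1 encodes the deiodinase that converts the prohormone thyroxine to the active hormone, and its start site (chr4:107307119-107307418, minus strand) overlaps a region that fell by 2.76 on the log2 scale. Mup-ps12 and Mup17 belong to the major urinary protein genes, and the regions at their starts (chr4:61440339-61440638, plus strand, and chr4:61595783-61596082, minus strand) fell by 2.86 and 3.11. Clcn7, a lysosomal chloride transporter (chr17:25136381-25136680, plus strand), had a region that fell by 1.32 and passed narrowly, with an adjusted p of 0.0455. The other 3 rose: Osbpl5, a lipid transfer protein (chr7:143756959-143757258, minus strand), by 1.75, Ptgfr, the receptor of prostaglandin F2α (chr3:151837479-151837778, minus strand), by 1.37 and Arsa, the lysosomal arylsulfatase A (chr15:89477375-89477674, minus strand), by 1.31.
Dio1: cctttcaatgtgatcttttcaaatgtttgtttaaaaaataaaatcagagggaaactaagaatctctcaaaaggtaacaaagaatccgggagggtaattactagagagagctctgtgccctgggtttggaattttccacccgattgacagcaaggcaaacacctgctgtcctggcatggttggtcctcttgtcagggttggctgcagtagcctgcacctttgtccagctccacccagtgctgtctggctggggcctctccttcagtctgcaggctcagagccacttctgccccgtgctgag
Mup17: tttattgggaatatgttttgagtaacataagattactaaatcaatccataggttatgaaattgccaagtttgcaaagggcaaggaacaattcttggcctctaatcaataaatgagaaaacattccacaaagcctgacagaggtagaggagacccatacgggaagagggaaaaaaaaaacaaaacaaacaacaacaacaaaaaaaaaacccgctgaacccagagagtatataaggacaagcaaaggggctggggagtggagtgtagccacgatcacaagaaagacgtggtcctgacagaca
Mup-ps12: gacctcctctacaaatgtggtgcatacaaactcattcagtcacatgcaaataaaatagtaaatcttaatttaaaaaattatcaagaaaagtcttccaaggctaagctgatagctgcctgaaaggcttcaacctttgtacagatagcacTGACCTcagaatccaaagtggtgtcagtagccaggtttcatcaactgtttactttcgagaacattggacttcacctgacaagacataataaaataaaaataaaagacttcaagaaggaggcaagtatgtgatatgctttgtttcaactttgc
Clcn7: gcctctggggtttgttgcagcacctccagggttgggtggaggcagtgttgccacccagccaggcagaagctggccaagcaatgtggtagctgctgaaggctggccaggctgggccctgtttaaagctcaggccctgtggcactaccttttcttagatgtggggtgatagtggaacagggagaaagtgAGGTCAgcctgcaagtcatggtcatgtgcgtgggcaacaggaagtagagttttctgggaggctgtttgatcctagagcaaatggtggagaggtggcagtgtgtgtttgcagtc
Osbpl5: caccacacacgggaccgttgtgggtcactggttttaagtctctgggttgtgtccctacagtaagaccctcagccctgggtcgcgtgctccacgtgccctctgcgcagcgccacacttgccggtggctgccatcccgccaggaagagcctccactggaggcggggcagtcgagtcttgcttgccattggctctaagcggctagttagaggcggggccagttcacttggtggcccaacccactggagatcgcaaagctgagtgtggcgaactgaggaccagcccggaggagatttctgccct
Ptgfr: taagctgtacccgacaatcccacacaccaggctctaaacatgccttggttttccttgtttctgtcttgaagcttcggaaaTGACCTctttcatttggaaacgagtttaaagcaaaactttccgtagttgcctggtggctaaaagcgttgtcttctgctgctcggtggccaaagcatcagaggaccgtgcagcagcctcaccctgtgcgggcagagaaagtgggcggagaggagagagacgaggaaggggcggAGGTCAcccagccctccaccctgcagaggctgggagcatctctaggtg
Arsa: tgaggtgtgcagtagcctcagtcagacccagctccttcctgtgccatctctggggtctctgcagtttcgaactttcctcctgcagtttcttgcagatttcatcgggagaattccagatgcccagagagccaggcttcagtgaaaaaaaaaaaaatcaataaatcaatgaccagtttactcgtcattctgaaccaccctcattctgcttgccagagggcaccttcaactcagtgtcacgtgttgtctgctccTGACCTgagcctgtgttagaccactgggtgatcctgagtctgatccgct

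The windows of Mup-ps12, Clcn7 and Arsa hold the hexamer once and that of Ptgfr holds it at 2 places, counted on both strands. Those of Dio1, Mup17 and Osbpl5 do not contain these letters. Mup-ps12, Clcn7, Ptgfr and Arsa were picked because their windows hold the hexamer, so its presence in them tests nothing. Dio1, Mup17 and Osbpl5 were picked without regard to it. Over all 32817 promoters, with those of the same position and strand counted once, 16.3% contain the hexamer. Over the 9303 with a tested region 13.7% do. Among the 131 promoters with a region that rose the share was 24.4%, and among the 174 with a region that fell it was 25.3%. Counted once per gene, the shares were 23.1% and 22.9%, against 14.9% of genes with a tested region. Near-identical copies such as the Mup genes count separately in both. Promoters with a region that rose or fell were poorer in G and C, with medians of 56.3 and 52.3%. The median for promoters with a tested region was 60.7%. Part of the share may go with base composition, which was not tested. The direct repeat AGGTCA, any 4 bases, AGGTCA, the textbook thyroid hormone response element, occurred in 5 of all promoters on either strand and in 0 of those with a tested region. A match is a string of letters, not a site at which binding was measured.

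Dio1, itself a target of thyroid hormone, had one of the deepest losses. Acetylation summed over its 7 regions was 290.5, 262 and 348.5 CPM (scaled over genes) in the chow libraries and 61.4, 41.8 and 43.5 in the PTU/LID libraries. Every PTU/LID library thus lay far below every chow library, and the log2 fold change was -2.64 ± 0.18 (SE; adjusted p = 1.16e-08). Of the 7 regions, which lie on chromosome 4 between positions 107298370 and 107307548, 6 fell, with log2 fold changes of -3.13 to -2.01. The widest, chr4:107303100-107307183, had 156, 141 and 196 CPM (scaled over regions) on chow and 28.6, 22.4 and 22.6 on PTU/LID. The largest fall was at chr4:107298841-107300051 inside the gene, from 29.6, 30.7 and 39.1 to 6.14, 2.76 and 3.21 CPM. One narrow region between them, with 2.72, 4.84 and 7.18 CPM on chow and 3.58, 1.66 and 3.21 on PTU/LID, overlapped between the diets and did not pass (adjusted p = 0.153). In WT the gene's log2 fold change was -1.94 ± 0.18, and the difference between genotypes did not pass (-0.70 ± 0.25, adjusted p = 0.321).

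Some other genes that thyroid hormone induces passed the test, and most did not. Of 27 listed, Dio1 included, 24 had a region to test, 5 fell and 1 rose (25.0%), and the list's median was -0.03 against 0 over all genes tested, of which 7.44% changed. With DESeq2 7 passed, where 957 of all genes did. An unadjusted p under 0.05 (edgeR) was found for 13 of the 24, against 2360 of all 11448 genes. Cyp7a1, which catalyses the first step from cholesterol to bile acids, went from 97.2, 120.0 and 123 CPM to 63.4, 54.5 and 53.6 (-1.0 ± 0.13, adjusted p = 1.93e-05). Gpd2, the mitochondrial glycerophosphate dehydrogenase, went from 191.6, 210.9 and 201.9 to 109, 144 and 158 (-0.55 ± 0.12, adjusted p = 0.00582). These 2 and Dio1 kept their call under all alternatives run. Idh3a, a subunit of the citric acid cycle's isocitrate dehydrogenase with a single region, went from 22.4, 15.4 and 20.5 to 10.4, 9.84 and 5.56 (-1.20 ± 0.23), and did not pass with only the libraries of higher chrM share (adjusted p = 0.0987). Klf9, a transcription factor, had 644, 662 and 734 against 403, 548 and 477 (-0.51 ± 0.15, adjusted p = 0.043). Its call was lost without library chow-a (0.0865), chow-b (0.0818), chow-c (0.15), PTU-a (0.132) or PTU-c (0.131) or library WT-chow-b (0.0561), and over regions near gene ends (0.55). The gene that rose was Ppargc1a, described with glucose metabolism.

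The genes that did not pass include lipogenic targets of the hormone. Thrsp, which promotes lipogenesis, had 185, 226 and 224 CPM on chow and 206, 256 and 269 on PTU/LID (0.20 ± 0.13). Me1, malic enzyme, had 94.6, 89.5 and 108 against 99.9, 87.1 and 89.9 (-0.08 ± 0.14). In both genes the diets overlapped. Ucp2, a mitochondrial carrier, stood at -0.39 ± 0.14 and Tbc1d1, which regulates glucose uptake, at -0.28 ± 0.10, with adjusted p of 0.0826 and 0.0965. Fbxo31 was at 0.50 ± 0.15, Angptl4, an inhibitor of lipoprotein lipase, at 0.45 ± 0.15, Nrg4, a secreted growth factor, at 0.42 ± 0.15 and Acaca, acetyl-CoA carboxylase, at 0.23 ± 0.11. A further 9 lay between -0.16 and 0.47: Pck1, Atp2a2, Fasn, Mlxipl, Srebf1, Cpt1a, Bcl3, Slc16a10 and Rbm3. No gene of this list passed the test of a difference from WT.

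The thyroid hormone receptors, Ncor1 and Hdac3 did not pass the test. Thrb, which encodes TRβ, had 499.9, 529 and 504.5 CPM on chow and 548, 526 and 491 on PTU/LID (0.03 ± 0.10), and Thra had 18.4, 18.9 and 27.9 against 22, 24.4 and 21.7 (0.06 ± 0.18). Ncor1 itself stood at 52.0, 64.1 and 45.5 against 59.4, 55.0 and 47.9 (0.00 ± 0.15), which is no check of the genotype, because the deleted stretch is not known from the labels. Hdac3, the deacetylase, stood at 0.34 ± 0.16 and did not pass. Of 31 tested receptors and coregulators, Esr1, the estrogen receptor (-0.52 ± 0.14), and Nr3c1, the glucocorticoid receptor (-0.40 ± 0.10), fell and Tbl1x, a subunit of the NCoR1 complex (0.43 ± 0.12), rose, which is 9.68% against 7.44% of all genes. Esr1 went from 210, 287 and 254 CPM to 178, 166 and 179. Its call was lost without library chow-b (adjusted p = 0.12), chow-c (0.0735), PTU-b (0.0977) or PTU-c (0.065), and with the libraries of higher chrM share (0.11). The call of Nr3c1 was lost without library chow-a (0.058), chow-b (0.0544) or PTU-c (0.123) and with the libraries of higher chrM share (0.076). That of Tbl1x was lost without any 1 of the 6 KO libraries (0.0547 to 0.188), with the 6 KO libraries alone (0.0535) and with the chrM term (0.0694).

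**Figure D2:**
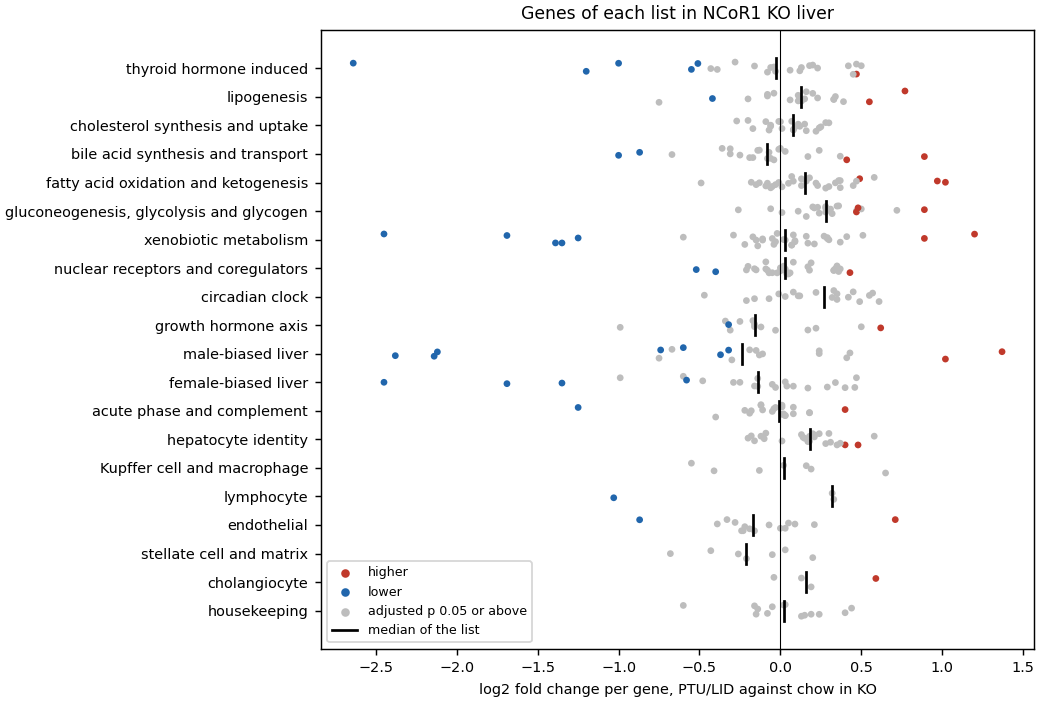
Each point is a gene of 1 of the 20 lists, placed by its log2 fold change on PTU/LID against chow in KO, with genes that rose in red, genes that fell in blue and the median of the list as a bar. Dio1 is the point at -2.64 in the first row, and most genes of most lists lie within 0.5 of 0 and did not pass.

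The urinary protein genes carried the deepest and broadest losses. Mup genes encode pheromone carriers secreted by the liver, and they respond to growth hormone and thyroid hormone. Of 206 tested regions at Mup genes 179 fell and 3 rose, and of 23 Mup genes 21 fell and 1 rose, with a median of -2.12. Over all features 2.94% of regions and 3.05% of genes fell. In WT the median of the 23 Mup genes was -1.53, and 2 of them passed the test of a difference between genotypes. The region of largest loss, chr4:61441960-61447886 in Mup-ps12, had 405, 327 and 453 CPM on chow and 44.5, 34.0 and 36.4 on PTU/LID (-3.37 ± 0.19, adjusted p = 1.23e-15). Mup17 summed over its 9 regions went from 1409, 1142 and 1381 to 176, 169 and 212 (-2.82 ± 0.18), and Mup15 from 311, 286 and 339.6 to 37.7, 41.5 and 57.5 (-2.76 ± 0.20). All PTU/LID libraries lay far below all chow libraries in these genes. The 2 exceptions lie in the same cluster: Mup20, the pheromone darcin, had 988, 799 and 886 against 716, 873 and 878.5 CPM (-0.11 ± 0.11, adjusted p = 0.641), and Mup21 rose from 90.0, 92.4 and 109 to 228, 269 and 257 (1.37 ± 0.14, adjusted p = 7.4e-07). Mup3 fell least (-0.37 ± 0.11), and its call was lost without library chow-a (0.201), chow-c (0.173), PTU-a (0.0972), PTU-b (0.0609) or PTU-c (0.0618) and over regions near gene ends (0.12). With only the libraries of higher chrM share 20 Mup genes fell and 1 rose. The copies are near-identical, so reads may be shared between them and which member carries a change is uncertain.

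Losses at the Cyp3a cluster were split between its members. Cyp3a genes encode drug-metabolizing cytochromes P450, and Cyp3a16, Cyp3a41a, Cyp3a41b and Cyp3a44 are known as fetal or female-biased forms. Of 85 regions 43 fell, against 2.94% of all regions, and of 8 genes these 4 fell, against 3.05% of all genes. With only the libraries of higher chrM share 2 of the 8 did. Cyp3a16 had 224, 316 and 279 CPM on chow and 67.2, 35.3 and 50 on PTU/LID (-2.45 ± 0.26, adjusted p = 0.000123), with all 15 of its regions lower. Cyp3a41b went from 129, 209.9 and 149.6 to 54.5, 43.6 and 62.6 (-1.60 ± 0.27), Cyp3a44 from 121.6, 212.6 and 146.1 to 66.3, 58.2 and 63.6 (-1.35 ± 0.21), and Cyp3a41a from 154.9, 300.2 and 232.6 to 62.9, 51.5 and 98.5 (-1.69 ± 0.35). Library chow-b was the highest of the chow libraries in all 4. Cyp3a44 did not pass with only the libraries of higher chrM share (adjusted p = 0.132), and Cyp3a41a did not pass there (0.177), with the chrM term (0.129), or without library PTU-a (0.0582) or PTU-b (0.0644). Cyp3a11, the main adult form, had 426, 510.5 and 452 against 416, 450.3 and 417.5 (-0.11 ± 0.12), and Cyp3a13, Cyp3a25 and Cyp3a59 lay between -0.04 and 0.13. In WT, Cyp3a16, Cyp3a41a, Cyp3a41b and Cyp3a44 had means of 78.5, 68.0, 56.3 and 67.2 CPM on chow. On PTU/LID the WT means were 60.3, 53.5, 45.2 and 41.7, and none of the 4 passed by diet in WT. Every KO chow library lay above these WT means. Of the 4, only Cyp3a16 passed the test of a difference between genotypes (-2.09, adjusted p = 0.0381). The Cyp3a genes too are near-identical copies.

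Among steroid sulfotransferases, which inactivate steroids and bile acids, Sult2a7 fell from 578, 522 and 513.5 CPM to 191.5, 251 and 235 (-1.25 ± 0.13, adjusted p = 6.69e-07). Sult2a8 fell from 547, 438 and 462 to 145.7, 204.5 and 198.5 (-1.39 ± 0.14). Of 8 genes of the family 3 fell, where 3.05% of all genes fell, and Sult2a6 had the smallest change of the 3 (-0.57 ± 0.17, adjusted p = 0.045). Without library WT-PTU-a 5 of the 8 fell, with the 6 KO libraries alone 5 and with only the libraries of higher chrM share 6. The call of Sult2a6 was lost under 8 alternatives (0.05 to 0.242), among them without library chow-b (0.0897), chow-c (0.226), PTU-a (0.104), PTU-b (0.169) or PTU-c (0.051), without library WT-chow-b (0.0605) or WT-PTU-b (0.05), and with the chrM term. The Sult2a genes are close copies of each other too. In the whole list of xenobiotic metabolism, 5 of 36 genes fell and 2 rose (19.4% against 7.44% of all genes), and those that fell are Cyp3a16, Cyp3a41a, Cyp3a44, Sult2a7 and Sult2a8. The glutathione transferases Gsta1, from 5.45, 11.2 and 11.1 to 21.4, 23.4 and 19.3 CPM (1.20 ± 0.31), and Gstm3, from 15.1, 19.1 and 20.8 to 33.6, 37.5 and 30.9 (0.89 ± 0.19), rose. Both separated by diet, and Gsta1 did not pass without library chow-a (0.092) or PTU-b (0.0952) or with the chrM term (0.0627).

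Bile acid genes moved in both directions, 2 up and 2 down of 23 (17.4% against 7.44% of all genes), with a median of -0.08. Beside Cyp7a1 the gene that fell was Akr1d1, the reductase that shapes the steroid ring of bile acids. It went from 699.8, 723.5 and 889.5 CPM to 443.5, 427 and 397 over 21 regions (-0.87 ± 0.11, adjusted p = 1.96e-05), and the 10 regions that fell included chr6:37600299-37601112, 25.8 kb from the gene, with 27.8, 27.9 and 30.4 on chow and 5.63, 2.35 and 4.37 on PTU/LID (-2.86 ± 0.26). Over regions within 2.5 kb of a gene end Akr1d1 did not pass (adjusted p = 0.319). The exporters Abcc4 (0.89 ± 0.15) and Abcc3 (0.41 ± 0.11), which move conjugates out of the hepatocyte into blood, rose. Abcc4 had 47.2, 77.4 and 62.0 against 98.2, 126 and 121 CPM. The call of Abcc3 was lost over regions near gene ends (0.167), with the libraries of higher chrM share (0.0658), and without library chow-a (0.111), chow-c (0.157), PTU-b (0.143) or PTU-c (0.058).

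Of 22 genes of glucose and glycogen metabolism 20 lay above 0, against 5706 of all 11448 genes, with a median of 0.28, and 3 passed (13.6% against 7.44% of all genes). Ppargc1a, a coactivator of gluconeogenic and mitochondrial genes, had 296, 311 and 313 CPM on chow and 401, 380.4 and 491 on PTU/LID (0.47 ± 0.12, adjusted p = 0.0203), and 8 of its 18 regions rose. One of them, chr5:51446164-51447107, lies 7.6 kb past an end of the gene and rose from 6.17, 5.58 and 3.82 to 30.7, 19.3 and 24.8 (2.26 ± 0.24, adjusted p = 1.19e-08), a call that every alternative kept. The call of the whole gene did not pass without library chow-a (0.0993), chow-b (0.0554), chow-c (0.0641) or PTU-c (0.163), with the chrM term (0.0893) or with the libraries of higher share (0.0554). Sds, serine dehydratase, rose from 39.9, 33.2 and 33.4 to 74.4, 63.5 and 60.3 (0.89 ± 0.21), and Ppp1r3c, which targets a phosphatase to glycogen, from 443, 403 and 371 to 507, 605 and 589.6 (0.48 ± 0.10). Sds did not pass without library chow-b (0.0559) or chow-c (0.0573) or with the chrM term (0.0536), and Ppp1r3c did not with the libraries of higher share (0.0883). Pck1, the rate-limiting enzyme of gluconeogenesis, stood at 259, 279.9 and 285 against 334, 368 and 435 (0.47 ± 0.22, adjusted p = 0.254), and Tat, tyrosine aminotransferase, at 0.72 ± 0.24 (adjusted p = 0.103). Neither passed, although their diets did not overlap.

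In lipid metabolism single genes rose or fell. Scd1, the desaturase that makes monounsaturated fatty acids, went from 389, 411 and 354 CPM to 638, 626 and 709 (0.77 ± 0.11, adjusted p = 5.87e-05), with 9 of its 13 regions higher, and kept its call throughout. Acly, which makes cytosolic acetyl-CoA, went from 124, 131 and 139.5 to 176, 193 and 208 (0.55 ± 0.12) and missed the threshold only with the libraries of higher chrM share (adjusted p = 0.0556). Fads2, a desaturase of polyunsaturated fatty acids, fell from 215, 225 and 221 to 162, 162 and 168.5 (-0.42 ± 0.11). Its groups were narrow and separate, yet the call was lost without library chow-a (0.0515), chow-b (0.0626), chow-c (0.0607), PTU-b (0.0679) or PTU-c (0.0556) and with the chrM term (0.0598). The lipogenesis list had a median of 0.13 over 23 genes, with 13% past the threshold against 7.44% of all genes. Of 32 genes of fatty acid oxidation and ketogenesis 3 rose and 0 fell, 9.38% against the same 7.44%, which is near the background, with a median of 0.15. Acot1, a cytosolic acyl-CoA thioesterase, rose from 26.8, 40.9 and 31.7 to 56.5, 71.7 and 65.5 (0.97 ± 0.18), and Acadm, which starts the oxidation of medium chains, from 145.2, 167.3 and 153.2 to 197, 235 and 221 (0.49 ± 0.12). Cyp4a12a, a fatty acid hydroxylase of male liver, rose from 8.07, 7.89 and 6.72 to 14.2, 12.2 and 19.3 (1.02 ± 0.24). Acadm did not pass without library chow-a (0.0652) or PTU-b (0.0615), near gene ends (0.202) or with the libraries of higher share (0.164), and Cyp4a12a did not without library chow-c (0.0584) or PTU-c (0.1) or with that set (0.105). Of 23 genes of cholesterol synthesis and uptake 0 passed with edgeR and 0 with DESeq2, and values ran from -0.27 to 0.30. An unadjusted p under 0.05 (edgeR) was found for 1 of them, against 2360 of all 11448 genes.

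Losses at sex-biased genes were mostly at the Mup and Cyp3a genes already described. Of 20 male-biased genes 7 fell and 2 rose, 45.0% against 7.44% of all genes. Mup1, Mup2, Mup3 and Mup7 are 4 of the 7. The others are Hsd3b5, a steroid dehydrogenase (-0.60 ± 0.15), Selenbp2, a selenium-binding protein (-0.74 ± 0.20), and Bcl6, a repressor downstream of growth hormone (-0.32 ± 0.10). Cyp4a12a and Mup21 are the genes that rose. Of 23 female-biased genes 4 fell (17.4%, where 3.05% of all genes fell), 3 of them Cyp3a genes and the other Abcd2, a peroxisomal fatty acid transporter, from 146.2, 153.8 and 144.3 to 91.0, 101.5 and 104 (-0.58 ± 0.11). Hsd3b5 did not pass without library chow-a (0.0755) or PTU-c (0.111), with the chrM term (0.14) or with the libraries of higher share (0.215), and Selenbp2 did not without library chow-a (0.0919) or PTU-c (0.0967). Bcl6 did not pass without library chow-a (0.181), chow-b (0.122), chow-c (0.0735), PTU-a (0.12) or PTU-c (0.111) or library WT-chow-b (0.0573), or near gene ends (0.555). In the growth hormone axis, where Bcl6 is also listed, Igfbp1, a binding protein of insulin-like growth factors, rose from 170, 216 and 178 to 302, 271 and 290.5 (0.62 ± 0.12, adjusted p = 0.00137), a call kept throughout.

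Clock genes had a median of 0.27 in KO. With edgeR 0 of 20 passed and with DESeq2 1. An unadjusted p under 0.05 (edgeR) was found for 5 of the 20, against 2360 of all 11448 genes, which is near the background. Per2 (0.35, adjusted p = 0.0531) and Arntl (0.45, adjusted p = 0.0615) lay nearest to the threshold. Hepatocyte identity genes had a median of 0.18, and 2 of 25 rose, 8.0% against 7.44% of all genes and thus near the background. Ttr, the thyroid hormone carrier transthyretin, rose from 433, 426 and 426 CPM to 616, 584 and 587 (0.48 ± 0.09), a call lost near gene ends (0.123). Apoa2, an apolipoprotein, rose from 154, 155.5 and 166 to 199.6, 190.5 and 239.1 (0.40 ± 0.11). Its call was lost without library chow-a (0.0942), chow-b (0.0743) or PTU-c (0.178), near gene ends (0.068), with the chrM term (0.0781) and with the libraries of higher share (0.141). Of 22 acute phase genes 2 changed, 9.09% against 7.44% of all genes and thus near the background. Hamp, the iron regulator hepcidin, fell from 49.0, 60.2 and 61.8 to 22.3, 29.5 and 19.8 (-1.25 ± 0.30) and Socs3, an inhibitor of cytokine signalling, rose (0.40 ± 0.11). Neither held throughout: Hamp did not pass without library chow-b (0.0622), chow-c (0.0641), PTU-a (0.0704) or PTU-c (0.121) or with the chrM term (0.147), and Socs3 did not without library chow-a (0.17), chow-c (0.079) or PTU-c (0.158), near gene ends (0.594) or with the libraries of higher share (0.12). The 14 housekeeping genes had a median of 0.02. With edgeR and with DESeq2 0 passed, and 3 had an unadjusted p under 0.05 (edgeR), also near the share of all genes.

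Markers of other cells were few. Summed acetylation of Kupffer cell and macrophage markers was 62.5 to 74.5 CPM on chow and 56.7 to 86.9 on PTU/LID. Endothelial markers summed to 1086 to 1109 and 1014 to 1138, and stellate markers to 65.7 to 91.0 and 69.5 to 79.9. All 3 ranges overlapped. Cholangiocyte markers did not, at 319.7 to 358 against 379 to 414, where Sctr, the secretin receptor, rose (0.59 ± 0.15) and the other 3 did not pass. The 3 lymphocyte markers summed to 115 to 150.1 on chow and 82.6 to 87.5 on PTU/LID, and Cd4 alone fell, from 119, 84.5 and 89.2 to 35.9, 52.9 and 53.1 (-1.03 ± 0.16, adjusted p = 0.000196). Ptprc and Lck stood at 0.32 and 0.33. Among endothelial genes Tie1 rose (0.71 ± 0.16) and Tek fell (-0.87 ± 0.27), both receptors of the angiopoietin system, and these 2 of 16 make 12.5% against 7.44% of all genes. Cd4 kept its call. Tek did not pass under 13 alternatives (0.0516 to 0.479), among them without library chow-c (0.349), PTU-a (0.0723), PTU-b (0.123) or PTU-c (0.135) and without library WT-chow-a (0.0596), WT-chow-b (0.0573), WT-chow-c (0.0516), WT-PTU-b (0.0538) or WT-PTU-c (0.0528). Tie1 did not pass without library chow-c (0.0522) or PTU-c (0.0551) or with the libraries of higher share (0.119), and Sctr did not without library chow-a (0.0604), chow-b (0.0787) or PTU-c (0.0988), near gene ends (0.597) or with that set (0.192).

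Changed regions lay away from start sites. Of regions with their midpoint within 1 kb of a RefSeq start 2.86% changed, of those inside genes but away from a start 5.83%, and of those outside genes within 50 kb 9.62%. Over 50 kb from any protein-coding gene 11.5% changed (7.24% higher, 4.25% lower). The order was the same in each alternative fit, with 1.29 to 3.84% at starts and 6.28 to 13.4% over 50 kb away. In WT the shares were 2.77, 3.28, 5.67 and 4.91%, out of 3.7% over all regions, so that the far regions changed less often there than those within 50 kb. Median levels were 11.9 CPM at starts and 7.71 to 8.57 in the other classes.

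The largest single gains were at such sites too. Of the 12 named regions that rose, 1 was at a start site, where 23.4% of all regions lay, and this difference was not tested. That region, at Osbpl5 (chr7:143755622-143756577), rose from 2.0, 5.21 and 4.43 CPM to 19.7, 24.4 and 36.6 (2.80 ± 0.32, adjusted p = 9.91e-07). A region inside Iqck (chr7:118935615-118936309) rose from 1.63, 9.30 and 4.13 to 25.6, 30.9 and 42.9 (2.74 ± 0.37), and Gprc5b, a receptor gene beside it, rose by 2.26 ± 0.32 over its own 2 regions. Around Khdc1a the level was highest of the group: chr1:21321744-21325290, 26.2 kb from the gene, went from 22.9, 19.4 and 17.4 to 105.9, 136.2 and 110.2 (2.57 ± 0.18, adjusted p = 2.37e-13). In each of these the PTU/LID libraries lay above all chow libraries by a wide margin. Others lay near or in Aldh8a1, Atg4c, an autophagy protease, Kcnk3, a potassium channel, Olfml2b, Oma1, a mitochondrial protease, and Prkce, a protein kinase C, with log2 fold changes of 2.26 to 2.54. A region 24.2 kb from Stab2, a scavenger receptor gene of endothelium, rose from 7.8, 10 and 9.63 to 34.8, 38.0 and 62.2 (2.30 ± 0.44), while Stab2 over all its regions stood at 0.05 and did not pass. It was not called with the chrM term (0.0664) or without library chow-a (0.0566), and the region near Gsta3 not with the libraries of higher share (0.136).

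**Figure D3:**
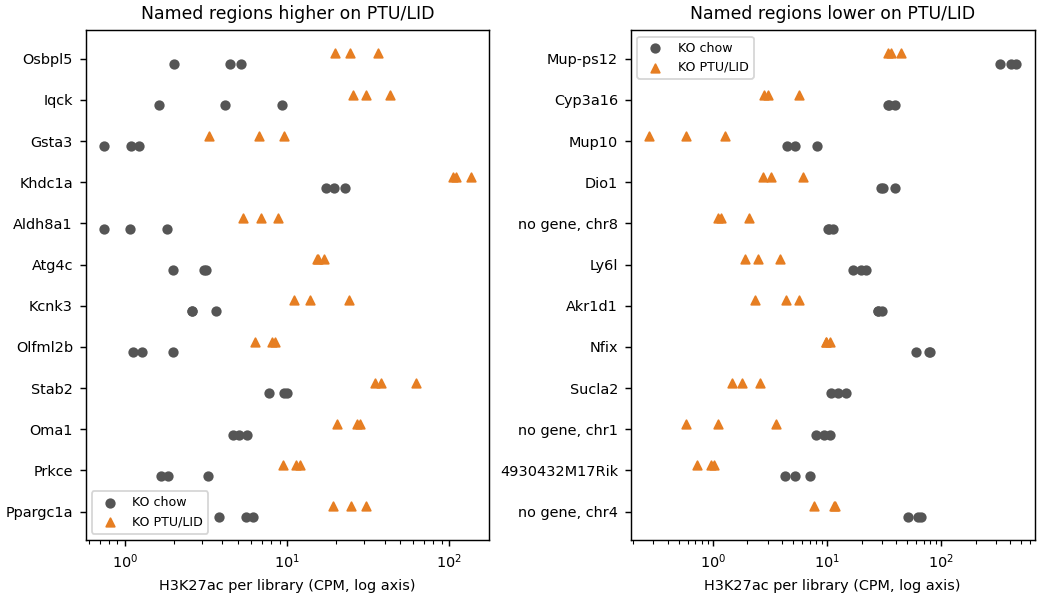
Each symbol is 1 KO library, dark circles on chow and orange triangles on PTU/LID, placed by its H3K27ac in counts-per-million on a log axis, for the 12 named regions that rose (left) and the 12 that fell (right). In all 24 rows the 3 libraries of one diet lie apart from the 3 of the other, as the rule for naming requires.

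Apart from regions assigned to Mup and Cyp3a genes, the named losses included an intragenic region of Nfix (chr8:84787881-84789882), a transcription factor. It had 78.6, 59.4 and 79.9 CPM on chow and 9.72, 9.80 and 10.5 on PTU/LID (-2.85 ± 0.19, adjusted p = 1.29e-13), and the PTU/LID libraries were almost alike. A region 18 kb from Ly6l (chr15:75431136-75431848) fell from 19.8, 16.7 and 22 to 3.84, 2.48 and 1.90 (-2.90 ± 0.32), and one 34.7 kb from Sucla2, a subunit of succinyl-CoA synthetase, from 10.9, 14.7 and 12.4 to 2.56, 1.79 and 1.46 (-2.75 ± 0.32). A region of 4930432M17Rik fell by 2.59 ± 0.44. There were 3 with no protein-coding gene within 50 kb. One of them, chr4:61167354-61168646, lies between the runs of losses at Mup22 and at Mup13 and Mup14, with Mup14 as its nearest start site. There the levels were 66.8, 51.2 and 62.5 against 11.8, 7.59 and 11.4 (-2.57 ± 0.20), and at chr8:76540224-76540661 they were 10.2, 10.4 and 11.2 against 2.05, 1.10 and 1.17 (-2.94 ± 0.37). The third, chr1:72032619-72032996 (-2.60 ± 0.38), did not pass with the libraries of higher chrM share (0.0961). Summed by gene, further losses were at Sult5a1, a sulfotransferase (-2.09 ± 0.20), Rsph1 (-2.14 ± 0.27), Ulk4 (-1.91 ± 0.20), the pheromone receptor gene Vmn2r20 (-1.88 ± 0.28), Unc79, a subunit of a sodium channel complex (-1.80 ± 0.31), and Olfr1346 (-1.72 ± 0.33). The last was not called with the libraries of higher share (0.0735). Gains summed by gene were also seen at Gm3776 (1.82 ± 0.31), 1700113H08Rik (1.79 ± 0.21), Castor2, an arginine sensor of the mTORC1 pathway (1.70 ± 0.25), and Sorcs2, a sorting receptor (1.52 ± 0.24).

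Some of the regions that changed lay in runs, which may hold regions that did not pass between them. How far such runs follow from the spacing of all tested regions was not tested. Runs of at least 5 regions that changed in the same direction, each within 50 kb of the next, numbered 65 among gains, with 448 regions (26.0% of all that rose), and 61 among losses, with 533 (34.5% of all that fell). The largest run of gains, chr6:31088019-31150466, has no protein-coding gene within 50 kb of its regions and lies over the long noncoding RNA Lncpint, with the microRNA genes Mir29a and Mir29b-1 nearby. Its 15 regions that rose, of 36 tested, summed to 643.5, 570.3 and 664.5 CPM on chow and 1033, 987 and 1204 on PTU/LID, with a median log2 fold change of 0.85. In WT the median of the same regions was -0.09. They were picked by their KO call, and the test of a difference between genotypes passed at 2 of the 15. Without library PTU-c, 7 of the 15 passed, and without library chow-b it was 8. The run at Ptgfr held 14 of 15 regions, which summed to 108.5, 161.5 and 152 on chow and 284, 319 and 407 on PTU/LID. The run at Scp2, the sterol carrier protein, and Echdc2 held 12 of 21, with 185, 226 and 167 against 318, 441 and 452. With the libraries of higher chrM share, 7 of 14 and 6 of 12 passed. Single libraries left out gave 7 of 12 at Scp2 (without library chow-c).

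Among gains, runs of 11 regions were found at 5 places. All 11 regions tested between Gsta3 and Khdc1a (chr1:21304106-21328716) rose, by 2.02 to 2.70, from 72.9, 76.7 and 73.1 CPM in sum to 312.5, 456 and 396. At Aldh8a1 (chr10:21422858-21461796) 11 of 12 rose, from 288, 285 and 273 to 558.5, 594 and 666. Beside Scd1 (chr19:44379533-44459688) 11 of 15 rose, from 184, 222 and 171.5 to 365, 376 and 444. In these 3 runs at least 7 of the 11 passed under each alternative. The others lay at Dop1b and Morc3 and at Etnppl and Ostc, where 3 of 11 passed with only the libraries of higher chrM share. At Dop1b and Morc3 it was 4 of 11 with the chrM term or without library PTU-b, 5 without library chow-c, 6 without library chow-a and 7 without library chow-b or PTU-c, and at Etnppl and Ostc 7 without library PTU-c. The losses also included 5 runs of 11 regions, at Sult2a7 and Vmn1r90, at Zdhhc13, Csrp3 and E2f8, at Slc25a30 and Tpt1, at Gpcpd1 and Shld1 and at Cyp3a41a. The 4 largest runs of losses were those of Mup genes, with 16 to 20 regions each and medians from -2.16 to -1.86. The run at Mup7 and Mup2 (chr4:60065503-60161325) had 20 of 21 regions lower and went from 1949.5, 1463.5 and 1800.5 to 301.5, 353 and 387 CPM in sum. Next was Cyp3a16 (chr5:145422114-145469639), with 15 of 15.

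**Figure D4:**
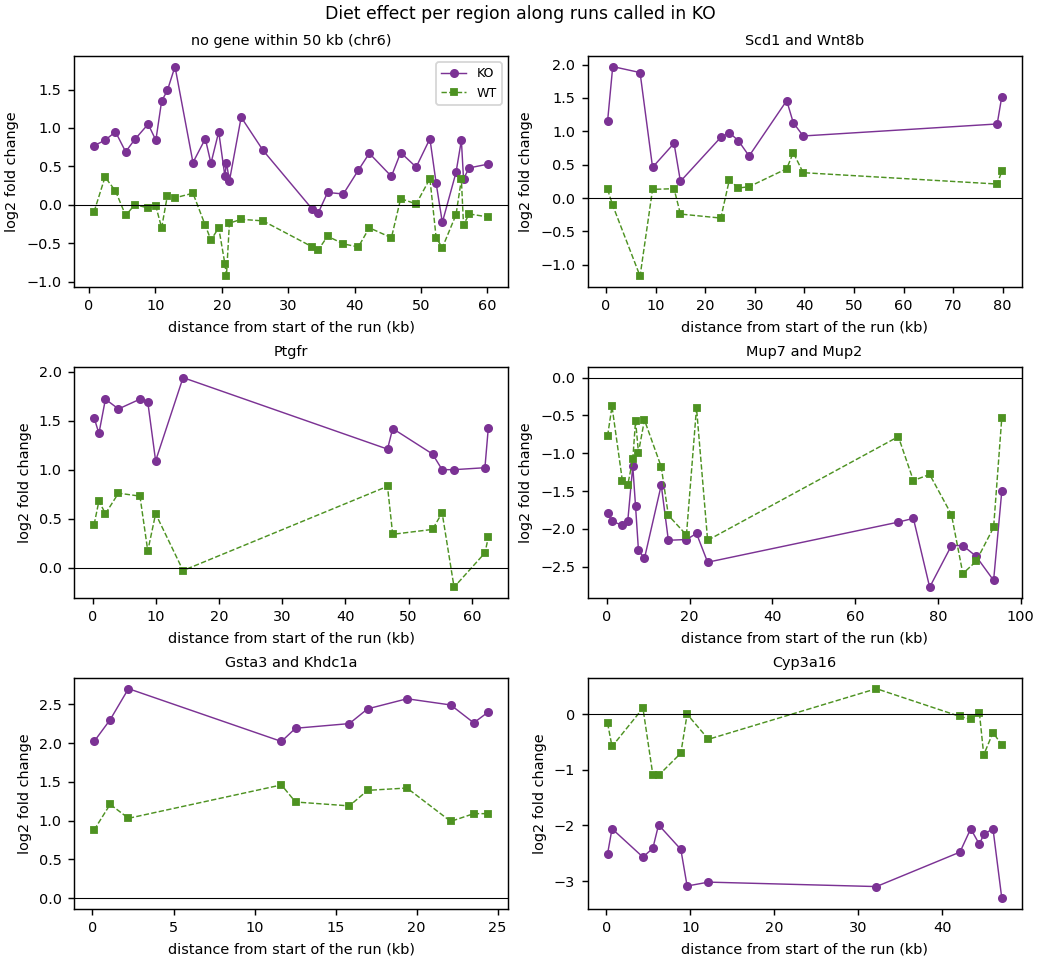
Log2 fold change on PTU/LID against chow of every tested region along 6 runs, by distance from the start of the run in kilobases, in KO (purple circles) and WT (green squares, dashed). In KO all 11 regions between Gsta3 and Khdc1a lie between 2.02 and 2.70 and all 15 of Cyp3a16 between -3.31 and -1.99. The WT medians are 1.19 and -0.33. The test of a difference between genotypes passed at 3 of the 11 and 6 of the 15.

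WT livers show how much of this differs with the corepressor present. The WT and KO contrasts share no library, only the estimate of the spread. In WT 1949 regions changed (3.7%), and without 1 of the 6 WT libraries it was 669 (WT-PTU-c) to 3612 (WT-PTU-a), with 906 without WT-chow-b, 932 without WT-PTU-b, 988 without WT-chow-a and 1177 without WT-chow-c. In WT 880 genes changed (7.69%). Of the regions that rose in KO, 254 (14.7%) also rose in WT and 4 fell there, and of those that fell in KO, 445 (28.8%) also fell. The WT sign was the same for 78.7% of the first and 91.6% of the second, against 62.8% over all tested regions. Their WT medians were 0.35 and -0.63. In KO the medians of these regions were 0.99 and -1.09. Seen from WT, 26.7% of the 952 regions that rose there and 44.6% of the 997 that fell there also did so in KO. The medians of the regions picked in WT were 0.89 and -1.12 in WT and 0.43 and -0.62 in KO. Each set had the smaller medians in the genotype by which it was not picked, so these medians test no difference. Passing in one genotype and not in the other is no test of a difference, which needs the interaction.

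The interaction of diet and genotype passed at 121 regions (0.23%) and 46 genes (0.402%). Among regions that rose in KO 69 passed it, all with the larger or opposite effect in KO, and among those that fell 38 did, 35 with the more negative effect in KO and 3 with the less negative. The 69 regions, near 44 genes, had medians of 11.5 CPM in KO on chow, 30.9 in KO on PTU/LID, 18 in WT on chow and 14.6 in WT on PTU/LID. Their KO level was thus below WT on chow (median log2 ratio -0.61) and above it on PTU/LID (1.0). The 35 regions had medians of 26.8, 5.2, 10.6 and 8.65 CPM in the same order, so KO stood above WT on chow (1.52) and below it on PTU/LID (-0.47). Of these 35 regions 31 had the larger gap between genotypes on chow, and 14 were Mup and 10 Cyp3a regions. Since these regions were picked by the interaction, their levels describe them and test nothing. The counts depend on the chrM sets: with a term for them 523 regions and 213 genes passed. With only the libraries of higher share, most of the 121 regions and many of the 46 genes did not pass. That last set leaves 1 library on PTU/LID in each genotype, PTU-a and WT-PTU-a, both assumed to vary like the other groups. Its calls thus rest on single libraries. In WT the chrM share was 0.82 to 6.12% on chow and 0.95, 1.08 and 3.26% on PTU/LID, the last in WT-PTU-a. Without 1 library the regions numbered 33 (WT-chow-c) to 208 (WT-PTU-a), with 37 without PTU-c, 54 without chow-c, 55 without PTU-b, 57 without chow-a, 59 without WT-chow-b and 74 without WT-PTU-c. The genes numbered 7 without chow-c, 14 without chow-a, 24 without PTU-c, 19 without WT-PTU-c, 20 without WT-chow-b, 30 without WT-chow-c and 89 without WT-PTU-a.

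**Figure D5:**
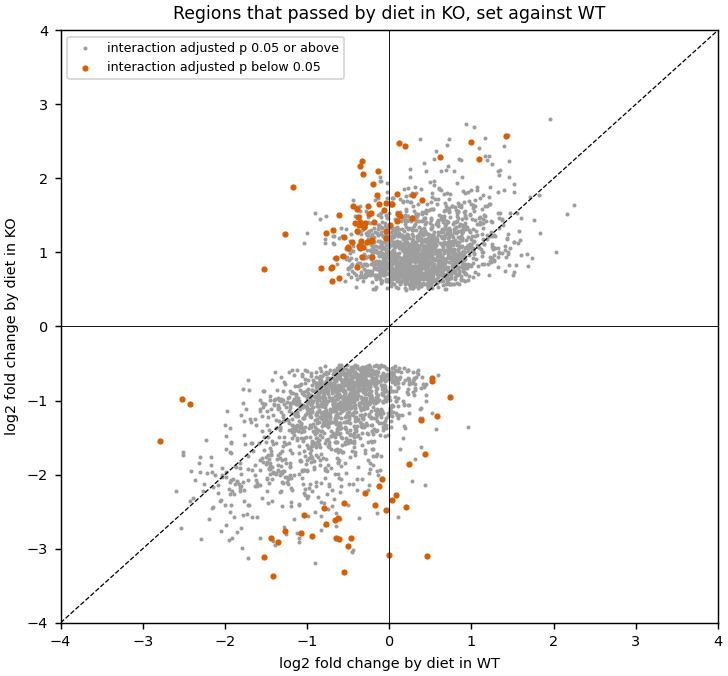
Each point is a region that changed by diet in KO, placed by its log2 fold change in WT (horizontal) and in KO (vertical); the dashed line marks equal values. Orange points passed the interaction, 69 of them above and 38 below 0 in KO, and the gap around 0 on the vertical axis is the threshold of the KO test.

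At Cyp3a16 the region of largest interaction (chr5:145453960-145454532) had 9.07, 10.2 and 10.5 CPM in KO on chow and 2.05, 0.552 and 1.17 on PTU/LID, against means of 2.66 and 3.32 in WT. The interaction was -3.57 ± 0.64 (adjusted p = 0.00534), and it did not pass without library WT-PTU-c (0.0816) or with the libraries of higher chrM share (0.438). Single regions near Mup9, Mup10 and Mup11 had interaction values of -2.26, -2.45 and -2.39. Summed over all regions of each gene, the interaction was -0.75, -0.61 and -0.91 and did not pass (adjusted p of 0.278, 0.27 and 0.1). These genes also fell in WT, by 1.42, 1.48 and 1.68. At chr4:60424262-60428373 near Mup9 KO went from 173, 118 and 161 CPM to 25.3, 17.7 and 19.5 and WT from a mean of 39.0 to 25.8, and this interaction passed in every alternative run. So did that of the Akr1d1 region named above (-2.21 ± 0.39), with WT means of 11.2 and 7.33. Among gains, Dync2li1, a dynein subunit gene beside the sterol exporters Abcg5 and Abcg8, rose over its 6 regions from 52.2, 41.7 and 38.0 CPM to 213.5, 141 and 181 (2.02 ± 0.24). In WT it had -0.20 ± 0.26, and the interaction of 2.22 ± 0.35 passed (adjusted p = 0.0143) but not without library chow-c (0.0525) or library WT-PTU-c (0.0617) or near gene ends (0.0653). Khdc1a rose in both genotypes, by 2.43 ± 0.13 in KO and 1.23 ± 0.13 in WT, with an interaction of 1.20 ± 0.18 (adjusted p = 0.00312) that held throughout. Sult2a7 was the opposite case: it fell by 1.25 ± 0.13 in KO and by 2.5 ± 0.14 in WT (interaction 1.25 ± 0.19, adjusted p = 0.00312), and that difference also held throughout.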

How the data were processed

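H3K27ac was measured by ChIP-seq in 12 libraries of whole mouse liver, 3 per genotype and diet, of which the 6 KO libraries carry the comparison. The authors deposited raw read counts for 52645 regions, and the lowest count in the table is 1. Per the submitters' processing notes the build is mm10, and MACS2 (2.1.1), Bowtie2 (2.2.1), bedtools (2.26.0), Picard (2.8.1) and bcl2fastq (2.17.1.14) were used in steps not spelled out, so how regions were called and reads counted is not given in the sources used here. Regions hold 200 to 9857 bp (median 468), and a wider region collects more counts.

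Counts were tested with edgeR 4.0.16 (R 4.3.3, limma 3.58.1): TMM factors, filterByExpr with a minimum count of 10, a robust quasi-likelihood fit of 1 mean per group over all 12 libraries, and contrasts for diet in KO, diet in WT and their interaction. P-values were Benjamini-Hochberg adjusted over all regions or genes, with a threshold of 0.05. The script was tested on simulated counts with known changes. A region was given to the RefSeq protein-coding gene (GRCm38.p6) that holds its midpoint, or to the nearest gene end within 50 kb, and 11460 of 21900 genes received at least 1. Gene counts are sums over these regions, and CPM of regions and of genes are on different scales. A start-site region has its midpoint within 1 kb of a RefSeq start, and regions of chromosome 18 were not classed.

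The named regions are the 12 largest changes each way among those past the threshold with a mean of at least 3 CPM and groups that do not overlap, with at most 2 genes per family of near-identical copies. The named genes are the 10 largest each way under the same limits, every list member that passed, the tested genes of the thyroid hormone list (some list members are not reported here), and for the interaction the 5 largest regions each way. The Cyp3a, Sult2a and Mup members are given as whole families, and the other genes and runs described beside them, such as Tat, were chosen after their values were seen. The comparison, the 20 lists and these rules were chosen with earlier results of these data known. Alternatives were size factors by RLE, no filter, DESeq2 1.42.0, no chrM regions, a term for the libraries above or below a chrM share of 2%, the 6 KO libraries alone, regions within 2.5 kb of gene ends, and each library left out. The fit on libraries of higher chrM share was added after seeing the data.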

Additional observations from a re-analysis of the deposited data

Results flagged for a closer look

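In the results below the effect of PTU/LID differed between KO and WT livers by the interaction test (edgeR quasi-likelihood, adjusted p below 0.05), given as the KO minus the WT log2 fold change. Gains in KO with a higher KO than WT effect were at regions near or in Khdc1a (1.15), Kcnk3 (2.36), Oma1 (1.66), Scd1 (3.05), Dync2li1 (2.58), Fabp5 (2.52) and Polr1a (2.51). The region 8.0 kb from Scd1 (chr19:44386241-44386570) had 0.907, 2.61 and 1.68 CPM on chow and 6.91, 6.21 and 6.27 on PTU/LID in KO, and means of 2.15 and 1.08 in WT. The region 6.3 kb from Fabp5, a fatty acid binding protein gene (chr3:10022596-10023229), had 2.72, 7.26 and 4.59 against 24.6, 15.9 and 25.4 in KO, and means of 4.84 and 3.58 in WT. The region 21.0 kb from Polr1a (chr6:72000226-72000597) moved in opposite directions, with 1.25 ± 0.32 in KO and -1.26 in WT, and both passed.

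Losses with a lower KO than WT effect were at regions of Mup-ps12 (-1.96), Akr1d1 (-2.21) and Nfix (-1.41), at chr5:145468718-145469639 (-2.76) and chr5:145453960-145454532 (-3.57) of Cyp3a16, at the start of Cyp3a41b (-2.64) and near Mup9 (-2.26), Mup10 (-2.45) and Mup11 (-2.39). At the start-site region of Cyp3a41b (chr5:145583767-145584386) KO had 17.1, 18.8 and 13.6 CPM on chow and 3.07, 2.35 and 3.64 on PTU/LID, against WT means of 3.41 and 3.83. Summed by gene, the values were 1.20 for Khdc1a, 2.22 for Dync2li1, 1.32 for Kcnk3, 1.75 for Castor2, 1.25 for Sult2a7, -1.23 for Mup17 and -2.09 for Cyp3a16.

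Of these 23 results 6 passed under every alternative run: the regions of Mup-ps12, Akr1d1, Mup9 and Mup10 and the genes Khdc1a and Sult2a7. The start-site region of Cyp3a16 was lost with only the libraries of higher chrM share (0.162). Nfix was lost there (0.0577) and without library chow-c (0.0509) or library WT-PTU-c (0.0585). Fabp5 was lost without library chow-a (0.0595), chow-c (0.0548), PTU-c (0.0625) or library WT-chow-b (0.139). Polr1a was lost with the libraries of higher share (0.133) and without library WT-chow-c (0.0783), and its KO call was lost without library chow-a (0.121), with the chrM term (0.0651) and with the libraries of higher share (0.0872). Cyp3a41b was lost with that set (0.0974) and without library WT-chow-c (0.0648) or WT-PTU-b (0.0586). The gene Kcnk3 was lost with that set (0.0541) and without library chow-a (0.0618) or chow-c (0.0546). The remaining ones were lost without any 1 of several libraries, with adjusted p up to the value given. For the Khdc1a region these were libraries chow-b, chow-c, PTU-b, PTU-c and WT-chow-b (up to 0.117). For the Kcnk3 region they were chow-b, chow-c, PTU-c and WT-chow-b, WT-chow-c, WT-PTU-b and WT-PTU-c (up to 0.131), with 0.457 in the set of higher chrM share. For Oma1 they were chow-a, chow-b, PTU-b and WT-chow-b and WT-chow-c (up to 0.127), with 0.126 in that set. For Scd1 they were chow-a, chow-c, PTU-b, PTU-c and WT-chow-a, WT-chow-b, WT-chow-c, WT-PTU-b and WT-PTU-c (up to 0.14), with 0.484 in that set. For the Dync2li1 region they were chow-b, chow-c, PTU-a, PTU-b, PTU-c and WT-chow-a, WT-chow-b, WT-PTU-b and WT-PTU-c (up to 0.178), and for Mup11 chow-a, chow-c, PTU-b, PTU-c and WT-chow-b, WT-chow-c and WT-PTU-a (up to 0.121). For Castor2 they were chow-a, chow-b, chow-c, PTU-b, PTU-c and WT-chow-a, WT-chow-b and WT-PTU-c (up to 0.146), with 0.0541 in the set of higher chrM share. For the gene Mup17 they were chow-a, chow-c, PTU-a, PTU-b, PTU-c and WT-chow-b, WT-chow-c and WT-PTU-b (up to 0.134), with 0.45 near gene ends, 0.0543 with the chrM term and 0.0989 in the set of higher chrM share. For the gene Cyp3a16 they were chow-b, chow-c, PTU-c and WT-chow-b, WT-PTU-a, WT-PTU-b and WT-PTU-c (up to 0.165), with 0.088 near gene ends.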

How the results depend on the processing

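With RLE factors, no filter, DESeq2 or no chrM regions, all 98 named diet results in KO stayed past the threshold, and 64 did so under every alternative run. None of the 98 changed sign. The chrM term ended 13 calls, the libraries of higher chrM share 21, regions near gene ends 11 of 46, and leaving out PTU-c, chow-a, chow-c, chow-b, PTU-b or PTU-a ended 19, 17, 15, 12, 10 or 8. The cause of these losses was not tested, and neither was the part of a smaller number of libraries or regions. The chrM term was fitted to all 12 libraries.

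Leaving out 1 library gave 1794 to 4017 regions and 467 to 1172 genes that changed in KO, 669 to 3612 regions in WT, and 33 to 208 regions and 7 to 89 genes past the interaction. With only the libraries of higher chrM share, 1923 regions changed in KO, 408 in WT, and 123 genes passed the interaction. The chrM term gave 523 regions and 213 genes for the interaction, and DESeq2 184 and 108. Regions near gene ends left 381 genes that changed in KO and 19 past the interaction.

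No paired analysis was possible because the H3K27ac groups share no library numbers in the labels. With 3 libraries per group, diet and chrM share cannot be fully told apart in KO. Library PTU-a, with 3719180 counts, is the shallowest and the only PTU/LID library in KO of higher chrM share.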
